A study of Mus musculus with 2 samples.

Results

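The immediate early genes and the heat shock genes were followed across the cell types of 2 mouse breast tumours, cell by cell. The members are 34 genes taken by symbol, of 31054 gene rows in both tables: 26 immediate early genes and 8 heat shock genes. Every one was found in both tables, and each had at least 1 UMI (a unique molecular identifier, which counts 1 captured RNA molecule) in kept cells of both libraries. The study used inAd-Chaser-mTmG mice of strain C57BL/6, which carry Adiponectin-rtTA, TRE-Cre and Rosa26 mT/mG. In these mice a doxycycline pulse turns on Cre through the adiponectin promoter, and cells that were adipocytes at that time switch from membrane tdTomato to membrane EGFP and pass EGFP to their descendants. Cells were sorted as EGFP+ and tdTomato-, and the stated purpose was to follow adipocytes that lose their identity during tumour progression. The first library came from a tumour that its label calls "Met-1 xenograft tumor" (here the Met-1 transplant), named for a mouse mammary tumour line, and the other from a "PyMT breast tumor", named for the polyoma middle T oncogene that drives mammary tumours in mice. Both libraries share the tracer alleles, the strain, the pulse and the sort. The series text names EO771 as the implanted line, so the identity of the implanted line differs between the sources and the sample label is followed here. The sources used here give no age, sex, pulse length or number of pooled mice. The implanted line is 1 line, and adiponectin promoter activity outside adipocytes cannot be told apart from descent by EGFP alone.

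Each tumour is 1 library, so no difference below has a replicate check or a test, and 95% intervals in parentheses cover counting error only. After filtering, 2119 Met-1 cells with a median of 7706 UMIs and 589 PyMT cells with a median of 3470 UMIs were kept, and 0 cell barcodes were shared between the libraries. Cell types were set in each library by counting UMIs of fixed marker genes. The largest were macrophages or monocytes (836 Met-1 and 193 PyMT cells), with 35 and 172 neutrophils, 271 and 40 T cells, 248 and 30 B cells, 242 and 11 fibroblasts, and 33 and 83 luminal epithelial cells. Met-1 also held 61 NK cells and 59 mural cells, against 5 and 0 in PyMT. Among the 10 leading genes of each of these types, between 2 and 9 were its own markers and 0 were markers of another type. The adipocyte markers, the labelled origin of the sorted cells, set 0 cells in both libraries, which allows a share of up to 0.174% of Met-1 and 0.624% of PyMT cells by the exact Clopper-Pearson limit. EGFP RNA was present in every type, from 120 counts per 1000000 UMIs in luminal cells to 13426 in neutrophils of Met-1, and from 76.5 in B cells to 9123 in neutrophils of PyMT. A further 301 Met-1 and 31 PyMT cells carried markers of several types, and 29 and 24 had too few marker UMIs. They enter no comparison of cell types, but are part of the values given over all kept cells.

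Immediate early genes are transcribed within minutes of a stimulus without need for new protein, when kinase signalling activates factors such as SRF and CREB that already sit in the cell. Many encode transcription factors: the Fos and Jun families form the dimeric factor AP-1, and the EGR, NR4A and KLF proteins bind their own sites. Others, such as Dusp1, Zfp36 and Socs3, end the signal again by removing phosphate from kinases, degrading short-lived mRNA or blocking cytokine receptors. Heat shock genes encode chaperones that hold or refold proteins and are switched on by the factor HSF1 when unfolded protein builds up. Both programmes are known to respond to the enzymes, warmth and time that a tissue needs to be taken apart into single cells, as well as to signals within the tissue.

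The short sequences that these pathways read can be seen just before some of the members. RefSeq windows of build GRCm38.p6 were given for 28 of the 34 members, and the 250 bases before each start were searched on both strands, with motifs allowed to overlap. Windows are shown for members whose values are followed below, or that carry the fullest motif, with the motif in capitals and the base next to the transcription start at the right end. HSF1 binds units of GAA and its inverse TTC, each parted by any 2 bases. A run of 3 such units was found in 1 of 6 heat shock members, Hspe1, which encodes the mitochondrial cochaperonin, in 0 of 22 early members and in 0.466% of all 32851 windows. A run of 2 units was found in 5 of 6 heat shock members (Hspa1a, Hspa1b, Hspb1, Hspe1 and Hsph1), in 4 of 22 early members (Fosl2, Jun, Egr2 and Rcan1) and in 12.8% of all windows. A member was counted when any of its windows held the motif, and some members have several, while the share is over single windows. For Fosl2, Egr2 and Rcan1 the run lay in a window whose start was not found near the start of an annotated transcript. In the pair Hspa1a and Hspa1b, which encode inducible HSP70 proteins, the run of 2 units begins 104 bases before the start. In Hsph1, which encodes a large cochaperone of HSP70, it begins 33 bases before the start.
Hspa1a, chr17:34972157-34972406, minus strand: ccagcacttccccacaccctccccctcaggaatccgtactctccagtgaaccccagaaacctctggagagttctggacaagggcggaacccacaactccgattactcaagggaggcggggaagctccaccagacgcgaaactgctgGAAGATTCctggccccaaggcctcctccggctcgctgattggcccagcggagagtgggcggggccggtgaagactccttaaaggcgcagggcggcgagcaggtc
Hspa1b, chr17:34959239-34959488, minus strand: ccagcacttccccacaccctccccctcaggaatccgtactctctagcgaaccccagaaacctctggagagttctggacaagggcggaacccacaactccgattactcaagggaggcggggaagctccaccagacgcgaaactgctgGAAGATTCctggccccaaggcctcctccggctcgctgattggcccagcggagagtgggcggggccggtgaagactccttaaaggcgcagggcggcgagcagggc
Hspe1, chr1:55087898-55088147, plus strand: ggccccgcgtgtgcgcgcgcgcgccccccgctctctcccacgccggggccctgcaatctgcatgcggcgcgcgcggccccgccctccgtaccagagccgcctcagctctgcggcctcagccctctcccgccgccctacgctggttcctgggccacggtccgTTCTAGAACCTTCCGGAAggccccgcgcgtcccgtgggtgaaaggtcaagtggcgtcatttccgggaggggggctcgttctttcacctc
Hsph1, chr5:149636337-149636586, minus strand: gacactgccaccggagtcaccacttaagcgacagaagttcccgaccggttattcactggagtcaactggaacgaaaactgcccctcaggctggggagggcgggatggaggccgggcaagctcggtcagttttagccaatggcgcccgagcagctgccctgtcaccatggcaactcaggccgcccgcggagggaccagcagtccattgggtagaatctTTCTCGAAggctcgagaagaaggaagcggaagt

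The Hspa1a and Hspa1b windows have the same base at 247 of 250 positions (98.8%) and differ by C44T, T47C and T249G, where the Hspa1a base comes first and positions count from 1 at the left end. Of the early members, Zfp36 and Egr2 hold a CArG box (CC, 6 bases that are A or T, GG), the site of SRF, against 1.47% of all windows. The full cyclic AMP response element, TGACGTCA, the site of CREB, was found in Dusp1, Btg2 and Rcan1 and in 1.55% of all windows. The start of the Btg2 window was likewise not found near the start of an annotated transcript. An AP-1 site (TGA, any base, TCA) was found only in Rcan1 among the members searched, against 6.75% of all windows. In Zfp36 the CArG box begins 58 bases before the start, and in Dusp1 the response element begins 143 bases before it. Each match describes these letters only, and sites further from the start were not searched.
Zfp36, chr7:28379229-28379478, minus strand: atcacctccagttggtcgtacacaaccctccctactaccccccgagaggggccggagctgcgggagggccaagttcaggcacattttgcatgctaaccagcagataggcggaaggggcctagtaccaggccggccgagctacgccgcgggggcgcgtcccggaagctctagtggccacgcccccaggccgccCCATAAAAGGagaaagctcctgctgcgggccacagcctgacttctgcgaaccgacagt
Dusp1, chr17:26508473-26508722, minus strand: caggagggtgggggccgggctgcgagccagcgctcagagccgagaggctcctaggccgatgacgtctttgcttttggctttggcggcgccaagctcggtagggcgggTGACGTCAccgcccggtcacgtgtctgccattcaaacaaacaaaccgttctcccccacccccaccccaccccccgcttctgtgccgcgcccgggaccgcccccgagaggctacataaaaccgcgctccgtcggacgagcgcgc

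Summed over all 26 early genes, the share of UMIs was highest in neutrophils in both tumours, and lowest in stromal cells of Met-1 and in lymphoid cells of PyMT. As counts per 1000000 UMIs of the cells of a type (CPM), the Met-1 sum was 21238 (20313 to 22194) in neutrophils and 20707 (20357 to 21062) in luminal cells, which overlap. Macrophages followed at 18068 (17970 to 18166). B cells stood at 11625, NK cells at 9466, T cells at 8062, fibroblasts at 7183 and mural cells at 5932, each apart from its neighbours beyond counting error. Neutrophils again led in PyMT at 21691 (21172 to 22219), now well above luminal cells at 12244 (12061 to 12428) and macrophages at 11641 (11479 to 11803). T cells at 8440 (8033 to 8862) and B cells at 8400 (7712 to 9133) could not be ordered, and the 11 fibroblasts gave 10334 (9774 to 10917). Neutrophils hold little RNA (a median of 2725 UMIs in Met-1 and 1638 in PyMT), and CPM is a share of that RNA, not an amount per cell. In the luminal cells of Met-1, 1 of 33 cells held 19.1% of the early UMIs, so that sum rests on few cells.

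The heat shock sum gave a different order, with neutrophils at the bottom in both tumours. The 8 genes summed to 975 CPM (785 to 1197) in Met-1 neutrophils and 2322 (2154 to 2499) in PyMT neutrophils. Luminal cells had the highest sum in both, at 4742 (4575 to 4914) and 4684 (4571 to 4798). Met-1 B cells followed at 4074 (3944 to 4207), with macrophages at 3683, mural cells at 3640, T cells at 3470, NK cells at 3249 and fibroblasts at 2590. The PyMT sums of B cells, 4575 (4071 to 5124), and T cells, 4364 (4073 to 4671), overlap each other and that of luminal cells, while macrophages stood at 3854 and fibroblasts at 3685. In each library, neutrophils thus had the highest or joint highest early sum and the lowest heat shock sum.

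**Figure D1:**
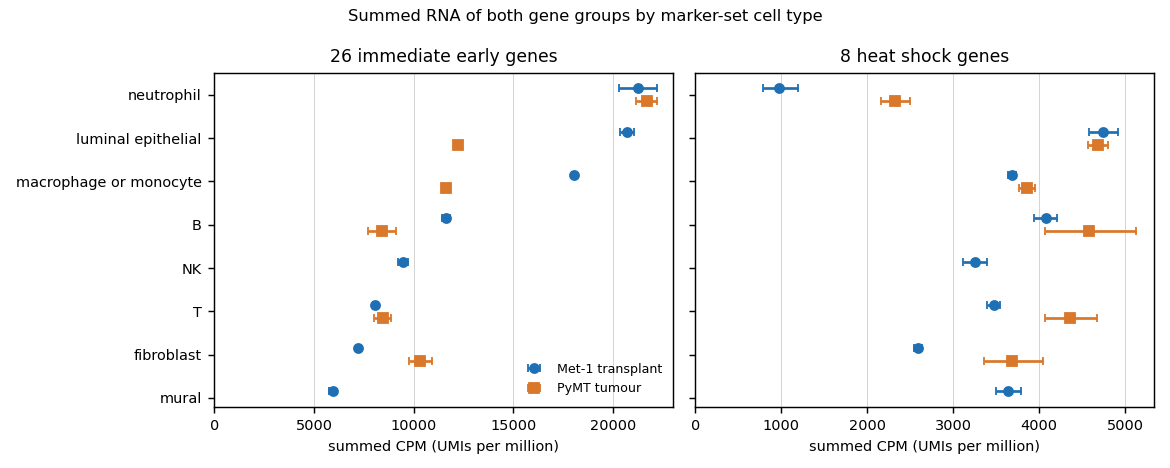
Summed CPM (x axis) of the 26 immediate early genes (left) and the 8 heat shock genes (right) in each marker-set cell type (y axis), with exact Poisson 95% intervals for counting error, circles for the Met-1 transplant and squares for the PyMT tumour. Neutrophils are rightmost for the early genes in both libraries (21238 and 21691) and leftmost for the heat shock genes (975 and 2322).

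The AP-1 subunits differed in the types where they were highest. Fos, a subunit of AP-1, was highest in luminal cells of Met-1, at 4468 CPM (4306 to 4635). Luminal cells of PyMT had Fos at 1799 (1729 to 1870), level with the 11 PyMT fibroblasts at 1843 (1611 to 2099). One Met-1 luminal cell held 619 of the 2870 Fos UMIs of its type. In Met-1 it was next highest in macrophages at 2396 and neutrophils at 1564, with the lowest level in NK cells at 211. Its PyMT levels were 1577 in neutrophils, 1429 in macrophages, 184 in B cells and 152 in T cells. Jun, the main dimer partner of Fos, was also highest in luminal cells, at 2613 (2489 to 2741) and 835 (788 to 885). Macrophages, fibroblasts and mural cells of Met-1 had Jun at 1340, 1284 and 1118, and T and NK cells at 331 and 303. PyMT B cells had 1 Jun UMI in 30 cells, or 15.3 CPM (0.387 to 85.3).

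Junb, which forms AP-1 dimers of weaker activity than Jun, was highest in neutrophils, at 4811 CPM (4376 to 5277) in Met-1 and 6250 (5973 to 6536) in PyMT. It was also abundant in lymphoid cells, with NK cells at 2727, T cells at 2041 and B cells at 1582 in Met-1, and T cells at 3358 and B cells at 3060 in PyMT. Fibroblasts at 699 and mural cells at 647 had the lowest Met-1 levels. Jund, often described as the more constantly expressed Jun protein, was highest in B cells of Met-1 at 3372 (3254 to 3494), but in PyMT in luminal cells at 1296 (1237 to 1357), with B cells at 689 (502 to 921). Atf3, a stress-induced repressor that pairs with Jun proteins, was highest in macrophages in both tumours. Its macrophage level was 1827 (1796 to 1858) in Met-1 and 525 (491 to 560) in PyMT. Luminal cells had 1398 and 329, neutrophils 611 and 248, and T cells 24 and 21.0. Fosl2 was highest in neutrophils in both (718 and 340), and Fosl1 had 68 UMIs over both libraries, of which 32 were in PyMT luminal cells.

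The zinc finger and nuclear receptor factors split by lineage. Nr4a2 and Nr4a3, orphan nuclear receptors induced by antigen receptor signals in lymphocytes, stood out in T and NK cells. Nr4a2 was at 580 CPM (522 to 643) in Met-1 NK cells, 383 (358 to 409) in Met-1 T cells and 498 (403 to 608) in PyMT T cells, against 54.3 and 57.8 in the macrophages of Met-1 and PyMT. Nr4a3 was at 277 (238 to 322), 257 (236 to 278) and 147 (97.5 to 212) in the same lymphoid groups. Nr4a1 did not share that pattern: it was highest in neutrophils (407) and macrophages (396) of Met-1, whose intervals overlap, and in luminal cells (603) and B cells (536) of PyMT, which overlap too. Egr1, a growth factor-induced zinc finger protein, was at 663 in luminal cells of Met-1 and 299 in those of PyMT, where neutrophils had 323. Klf2, which keeps lymphocytes and endothelium quiescent, was highest in B cells of Met-1 at 1199, but in PyMT in neutrophils at 650 (563 to 747) and the 11 fibroblasts at 690 (551 to 853), which overlap. Klf6 was led by luminal cells, at 1383 (1293 to 1477) in Met-1 and 914 (864 to 965) in PyMT, and Klf4 by macrophages, at 414 and 186, except for the 11 PyMT fibroblasts at 804 (653 to 978). Egr2 and Egr3 had few UMIs, 384 and 530 over both libraries, and Egr3 reached 145 CPM in Met-1 B cells.

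Of the genes that end the early response, Dusp1 and Btg2 were highest in neutrophils in both tumours, apart from every other type beyond counting error. Dusp1, the phosphatase that switches off p38 and JNK kinases, was at 2379 CPM (2076 to 2713) in Met-1 neutrophils and 2642 (2463 to 2830) in PyMT neutrophils, with macrophages next at 1269 and 1206. B cells of Met-1 had it at 145 and T cells of PyMT at 210, the lowest levels. Btg2, an antiproliferative protein that promotes mRNA deadenylation, was at 2143 (1856 to 2462) and 1646 (1505 to 1796) in neutrophils. Zfp36, which binds and destabilises cytokine mRNA, was as high in macrophages (1064 and 633) as in neutrophils (1147 and 656) within counting error. Socs3, the inhibitor of cytokine receptor signalling, was at 707 and 797 in neutrophils and at 566 and 551 in macrophages. Ier3 was at 2263 in PyMT neutrophils but at 707 in Met-1 neutrophils, while luminal cells had 1090 in Met-1 and 1328 in PyMT. Dusp2, a phosphatase of immune cells, was at 396 and 735 in neutrophils, with NK cells of Met-1 higher at 455, and at 3.11 and 7.10 in luminal cells of Met-1 and PyMT. Ier2 was highest in luminal cells of Met-1 (1071), while Ier5 was highest in neutrophils of PyMT (849). Rcan1, a calcineurin inhibitor, stayed at or under 68.6 CPM in all compared types except the PyMT fibroblasts, at 268.

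**Figure D2:**
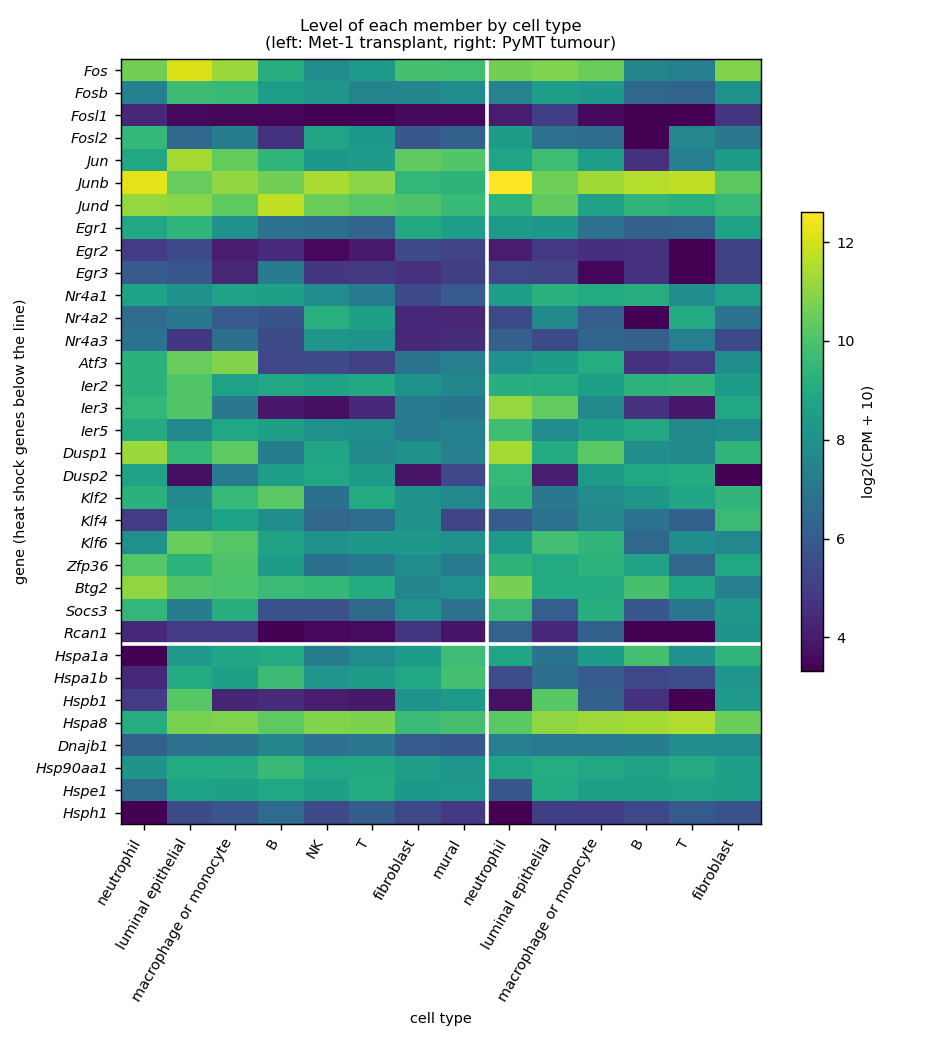
Level of each member (rows) in each cell type (columns) as log2(CPM + 10), with the 8 Met-1 types left and the 6 PyMT types right of the vertical line and heat shock genes below the horizontal line. Junb is brightest in neutrophils, Nr4a2 and Nr4a3 in T and NK cells, and Hspb1 in luminal cells.

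The heat shock genes differed in how widely they were expressed. Hspa8, the constitutive HSC70 chaperone, was present at high levels in every type, from 525 CPM (388 to 694) in neutrophils to 1847 (1743 to 1956) in NK cells of Met-1, and from 1208 (1088 to 1338) in neutrophils to 2876 (2641 to 3127) in T cells of PyMT. Hspb1, the small chaperone HSP27, was a gene of luminal cells, at 1165 (1083 to 1251) and 1169 (1113 to 1226). Fibroblasts had it at 264 and 308, mural cells at 315, and Met-1 T, NK and B cells between 5.68 and 12.1. The inducible Hspa1a was highest in mural cells of Met-1 at 838 (771 to 909) and in B cells of PyMT at 933 (714 to 1199). Of the 61 PyMT B cell UMIs 38 came from 1 cell, and without it the level was 364, below that of neutrophils at 428, where 1 cell held 69 of 131. Hspa1b was at 901 (831 to 975) in mural cells and 818 (760 to 879) in B cells of Met-1, which overlap, but at most 92.4 in any PyMT type of 20 cells or more. Hsp90aa1, the inducible cytosolic HSP90, was led by Met-1 B cells at 767 (712 to 826), and lay between 398 and 525 in all 5 PyMT types. Hspe1 was low in neutrophils, at 85.7 (37.0 to 169) and 49.0 (27.4 to 80.8), against 509 in Met-1 T cells and 502 in PyMT luminal cells. Dnajb1, an HSP40 cochaperone, and Hsph1 were highest in B cells of Met-1, at 180 and 85.6, and Hsph1 had 0 UMIs in neutrophils of both libraries, where the exact upper limits are 39.5 and 12.0 CPM.

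To ask which types had the most members standing out, a gene was counted as apart in a type when its CPM + 10 was at least 2-fold the mean of the other types of that library with at least 20 cells. In Met-1 there were 8 such types, and 25 of 26 early members had the required 50 UMIs. Neutrophils had 8 early members apart (Fosl2, Junb, Ier3, Dusp1, Dusp2, Zfp36, Btg2 and Socs3), where 7.78% of all 11530 genes were apart. Luminal cells also had 8 (Fos, Fosb, Jun, Egr1, Atf3, Ier2, Ier3 and Klf6), against 8.58% of genes. Macrophages had 7 (Fosb, Atf3, Dusp1, Klf4, Klf6, Zfp36 and Socs3), against 6.85%. NK cells had 4 (Fosl2, Nr4a2, Nr4a3 and Dusp2) against 4.27%, B cells had 3 (Jund, Egr3 and Klf2) against 4.22%, and T cells had 2 (Nr4a2 and Nr4a3) against 2.85%. Fibroblasts and mural cells had 0 of 25, where 12.3% and 10.6% of genes were apart.

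PyMT showed the same leading types among the 5 compared. Neutrophils had 11 of 25 early members apart against 11.2% of 6968 genes, and Fosl2, Junb, Ier3, Dusp1, Dusp2, Btg2 and Socs3 were apart in neutrophils of both libraries. Luminal cells had 7 (Fos, Fosb, Jun, Jund, Egr1, Ier3 and Klf6) against 19.6% of genes, and macrophages had 4 (Atf3, Klf4, Socs3 and Rcan1) against 8.80%. T cells had 2, again Nr4a2 and Nr4a3, against 6.29%, and B cells had 0 against 7.36%. The 8 heat shock members are given beside the same shares of all genes. Met-1 counted 2 in B cells (Dnajb1 and Hsph1, 4.22% of genes), 2 in mural cells (Hspa1a and Hspa1b, 10.6%) and 1 in luminal cells (Hspb1, 8.58%). The other Met-1 types had 0, where 2.85% to 12.3% of genes were apart. PyMT counted 2 in luminal cells (Hspa1b and Hspb1, 19.6%), 1 in T cells (Hsph1, 6.29%) and 1 in B cells (Hspa1a, 7.36%). PyMT macrophages (8.80%) and neutrophils (11.2%) had 0. With 8 members, such counts are too small to set apart from these shares. Some of these calls were lost without the 1 cell with the most UMIs of that gene: Dusp2 in neutrophils (from 2.08-fold to 1.24-fold), Dnajb1 in B cells (to 1.86-fold) and Hspa1b in mural cells (to 1.93-fold) of Met-1. In PyMT they were Hspa1a in B cells (from 3.25-fold to 1.29-fold), Hsph1 in T cells (10 UMIs, to 1.75-fold), and Egr1 (to 1.94-fold) and Hspa1b (to 1.87-fold) in luminal cells. Nr4a3 in PyMT T cells (28 UMIs) fell just under 2-fold without its top cell. The types of Met-1 and PyMT that are averaged differ, so the counts of the libraries are given side by side only.

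A wider list of 36 other early response genes, such as inhibitors of NF-kappaB and growth arrest genes, also had its highest counts in neutrophils. The list was written with earlier results of these data known, so it is no independent check. Neutrophils had 16 of 34 measured genes apart in Met-1 (7.78% of all genes) and 20 of 34 in PyMT (11.2%), among them Nfkbia, Ppp1r15a, Gadd45b, Mcl1, Ptgs2 and Cxcl2 in both. Luminal cells had 8 (8.58% of all genes) and 11 (19.6%), macrophages 5 (6.85%) and 0 (8.80%), and T cells 0 (2.85%) and 1 (6.29%). Of 26 other heat shock genes, luminal cells had 4 of 26 in Met-1 and 7 of 25 in PyMT, beside the same 8.58% and 19.6% of all genes, with Hsp90ab1, Hspb8 and Fkbp4 in both, and neutrophils had 1 and 1.

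Cells of one type differed widely in early RNA, which was compared after thinning every cell to 1000 UMIs. Met-1 macrophages had a median of 15.0 early UMIs with quartiles of 7.0 and 27.0, and PyMT macrophages 9.0 with quartiles of 2.0 and 17.0. Neutrophils were more even, with medians of 21.0 (quartiles 15.75 and 24.25) and 20 (14.0 and 27.0). Their lowest cells still had 8 and 3 early UMIs, whereas macrophages reached 0 in both libraries. Fibroblasts and mural cells of Met-1 had medians of 4.0 and 2.0 but reached 60 and 43, and the 10% of their cells with the most early UMIs held 40.0% and 47.3% of them, against 27.1% in macrophages. Heat shock UMIs had medians between 1.0 and 4.5 in all types. Single cells could carry many more: 1 PyMT neutrophil held 69 of the 131 Hspa1a UMIs of its type before thinning, and 1 thinned PyMT neutrophil had 43 heat shock UMIs. Thinning left out 22 of 836 and 1 of 193 macrophages, 3 of 35 and 11 of 172 neutrophils, and 7 of 33 and 4 of 83 luminal cells as too shallow.

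**Figure D3:**
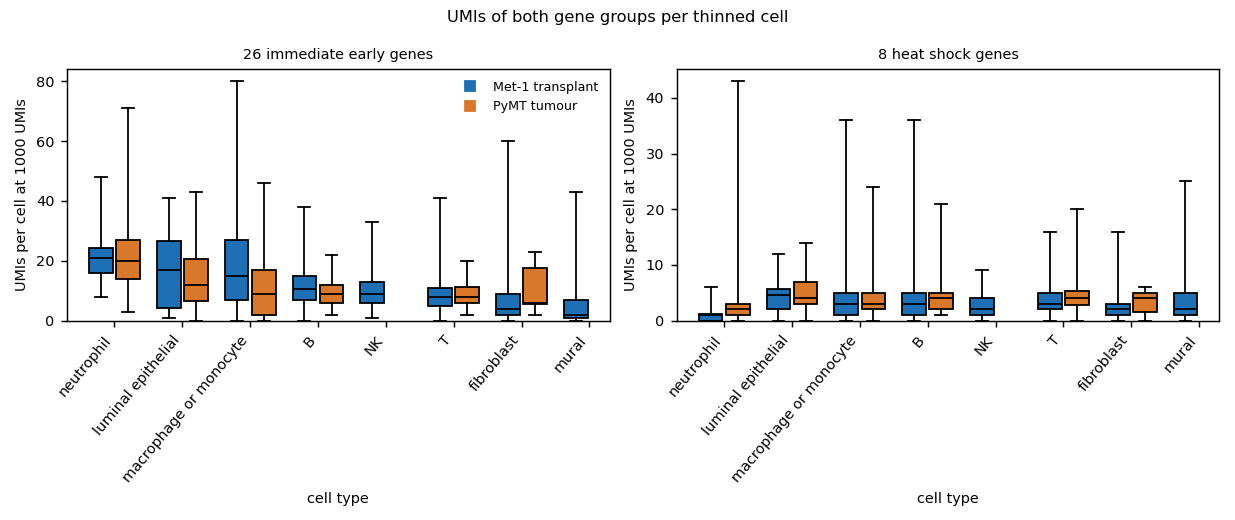
UMIs of the early genes (left) and heat shock genes (right) per cell after thinning to 1000 UMIs, by cell type, with boxes for quartiles, black lines for medians and whiskers for the lowest and highest cell. Neutrophil boxes are high for the early genes (medians 21.0 and 20), while macrophage boxes reach from 7.0 to 27.0 in Met-1 and from 2.0 to 17.0 in PyMT.

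Macrophages of the 2 tumours were compared first because both libraries held many. Their early sum was 1.55 times higher in Met-1 (1.53 to 1.58), and their heat shock sum was 0.956 times the PyMT value (0.930 to 0.982). Of 24 measured early members, 7 were at least 2-fold higher in Met-1, where 5.15% of 8414 genes were, and 2 were at least 2-fold lower, where 1.15% were. Those higher were Jun at 3.77 times (3.47 to 4.10), Klf2 at 3.49 (3.14 to 3.89), Atf3 at 3.48 (3.25 to 3.73), Jund at 3.15 (2.91 to 3.41), Egr1 at 2.63 (2.25 to 3.09), Fosb at 2.54 (2.32 to 2.79) and Klf4 at 2.23 (1.98 to 2.51). Among those higher by less than 2-fold were Fos at 1.68 times (1.61 to 1.75), Zfp36 at 1.68 (1.58 to 1.79), Klf6 at 1.67 (1.57 to 1.78) and Btg2 at 1.94 (1.80 to 2.08). Nr4a1 at 0.782 (0.724 to 0.844) and Ier3 at 0.592 (0.522 to 0.672) were lower by less than 2-fold. Nearer to 1 were Junb at 0.894 times (0.864 to 0.925), Ier2 at 1.04, Dusp1 at 1.05 and Socs3 at 1.03. Lower in Met-1 were Dusp2 at 0.418 times (0.377 to 0.465) and Rcan1 at 0.344 (0.267 to 0.444). The early members thus had a median log2 ratio of 0.64, against 0.15 for all genes tested. They did so unevenly, from -1.20 for Dusp2 and Rcan1 to 1.88 for Jun.

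The macrophage ratios were also set beside those of the other shared types, whose early sums had ratios from 0.955 in T cells to 1.69 in luminal cells. After the median log2 ratio of a gene over the other shared types was taken from its macrophage ratio, 1 of 21 early members remained higher, Klf2 at 1.31 on the log2 scale, where 1.81% of 3484 genes were higher, and 0 were lower, where 1.03% were. On this relative scale Egr1 was at 0.73, Jun at 0.53, Atf3 at 0.51, Jund at 0.22, Fosb at 0.12 and Klf4 at 0.11. The libraries differ in tumour, mouse and preparation at once, and these cannot be told apart.

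Heat shock members of macrophages went both ways. Hspa1b was 6.90 times higher in Met-1 (5.61 to 8.56), at 379 against 54.9 CPM, while its copy Hspa1a was 1.30 times higher (1.19 to 1.42), at 435 against 334. Hspb1 was at 0.157 times (0.114 to 0.214), with 9.70 CPM in Met-1 and 61.9 in PyMT, where 1 cell held 36 of its 106 UMIs. The other 5 lay between 0.747 for Hspa8 and 1.94 for Hsph1. RNA of other types in macrophages also differed: S100a8 and S100a9, neutrophil genes, summed to 16.1 CPM in Met-1 and 124 in PyMT macrophages, and the part of such RNA in the Hspb1 difference was not tested.

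Luminal and B cells had 8 and 7 early members higher in Met-1. In luminal cells 8 of 20 were higher (5.09% of 3930 genes) and 1 was lower (7.89%), with Atf3 highest at 4.25 times (3.80 to 4.77) and Nr4a1 lowest at 0.436 (0.368 to 0.515). Without the cell with the most UMIs of each gene 5 of the 8 remained (Fos, Fosb, Jun, Atf3 and Btg2), and Egr1, Klf4 and Socs3 came inside 2-fold. Of 7 heat shock members in luminal cells, Hspa1b at 5.48 times (4.46 to 6.77) and Hspa1a at 2.79 (2.25 to 3.47) were higher and 0 were lower. The luminal early sum was 1.69 times higher (1.65 to 1.73), and 1.32 times when each cell had equal weight. S100a8 and S100a9 summed to 958 CPM in Met-1 and 148 in PyMT luminal cells, and the part of RNA from other types in the luminal ratios was not tested. In B cells 7 of 17 were higher (19.9% of 2314 genes) and 0 were lower (4.32%). The B cell ratio was highest for Jun at 43.8 (7.84 to 1734), which rests on the 1 PyMT UMI, and the early member with the lowest was Junb at 0.517 (0.446 to 0.602). Of 7 heat shock members in B cells, Hspa1b at 26.7 times (7.37 to 221, on 2 PyMT UMIs) and Hsph1 at 2.80 (0.749 to 23.5) were higher, and Hspa8 at 0.473 (0.403 to 0.559) was lower. The 30 PyMT B cells give few counts, and 0 early members of B cells were called when both libraries had to reach 50 UMIs. T cells had 2 of 21 higher (10.7% of 4742 genes), Fosb at 2.54 times (1.47 to 4.82) and Jun at 2.18 (1.50 to 3.27), and 0 lower (2.99%), with Nr4a1 lowest at 0.582 (0.420 to 0.825). Of 7 heat shock members in T cells Hspa1b was higher, at 9.30 times (4.49 to 23.2, on 7 PyMT UMIs). There 0 were lower, with Dnajb1 lowest at 0.532 (0.384 to 0.752). The higher calls of T cells, early and heat shock, were lost when both libraries had to reach 50 UMIs. The share of early members called in T cells was thus near that of all genes. The leading genes of T cells differed between the libraries, with Cd8a, Cd8b1 and Lef1 in Met-1 and Gzmb, Nkg7 and Xcl1 in PyMT. The part of T cell make-up in these ratios was not tested.

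Neutrophils, the type with the highest or joint highest early sum as a share of its UMIs, differed little in that sum, at 0.979 times (0.931 to 1.03). Of 19 measured early members 3 were higher in Met-1 (5.08% of 885 genes): Jund at 3.62 times (2.97 to 4.43), Atf3 at 2.46 (1.71 to 3.52) and Fosl2 at 2.11 (1.53 to 2.90), which came inside 2-fold without its top cell in each library. Ier3 alone was lower, at 0.313 times (0.239 to 0.403), where 18.2% of genes were lower. Their heat shock sum was 0.420 times that of PyMT (0.334 to 0.523), and 2 of 3 measured members were lower. Hspa8 was at 0.435 times (0.316 to 0.587). Hspa1a had 0 UMIs in 35 Met-1 neutrophils, against 131 UMIs, or 428 CPM, in PyMT. By a floor of 3 counts over the type it was at least 13.3-fold lower, and the exact interval allows a difference of 10.7-fold. Of those PyMT UMIs 69 came from 1 cell, without which the level was 204 CPM.

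In fibroblasts, the early genes were lower in Met-1, although the PyMT library held only 11 of these cells. Their early sum was 0.695 times the PyMT value (0.657 to 0.736) and their heat shock sum 0.703 times (0.640 to 0.774). Of 22 measured early members 9 were lower (5.10% of 7895 genes) and 1 was higher (21.2%). Lowest were Rcan1 at 0.0657 times (0.0429 to 0.102) and Nr4a1 at 0.0828 (0.0591 to 0.118), with Fosl2, Atf3, Ier3, Dusp1, Klf2, Klf4 and Zfp36 the other lower members. Without the cell with the most UMIs of each gene 7 of the 9 remained, and Atf3 and Zfp36 came inside 2-fold at log2 ratios of -0.44 and -0.47, while Egr2 and Egr3 joined Jun as higher. Jun was the exception, at 3.77 times higher (2.78 to 5.23). Among heat shock members Dnajb1 was lower, at 0.241 times (0.161 to 0.374). Of the early UMIs of PyMT fibroblasts, 1 cell held 24%. S100a8 and S100a9 summed to 89.3 CPM in PyMT and 6.35 in Met-1 fibroblasts, and their part in these ratios was not tested.

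Read across the 5 types with at least 30 cells in both libraries, Jun, Jund, Fosb and Atf3 were the early members most often called higher in Met-1. Jun was at least 2-fold higher in Met-1 in 4 of 5 types and Fosb in 4 of 5, Jund in 3 of 5 and Atf3 in 3 of 4. In single types 5.08% (neutrophils) to 19.9% (B cells) of all genes were higher. The share of all genes higher in as many types was not computed, so these counts cannot be set beside it. The Jun and Fosb calls in T and B cells rest on 29 and 1 (Jun) and 13 and 5 (Fosb) PyMT UMIs, and they were lost when both libraries had to reach 50. The Jund call in B cells rests on 45 PyMT UMIs and was lost in the same way. Fosb was at a log2 ratio of -0.07 in neutrophils. Jund had log2 ratios from 0.61 to 2.28. Junb lay between -0.95 and -0.09, with 0 calls, and in luminal cells its interval includes no difference. Dusp1 ranged from -0.63 to 0.46 and Zfp36 from -0.21 to 0.80, with 0 calls.

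**Figure D4:**
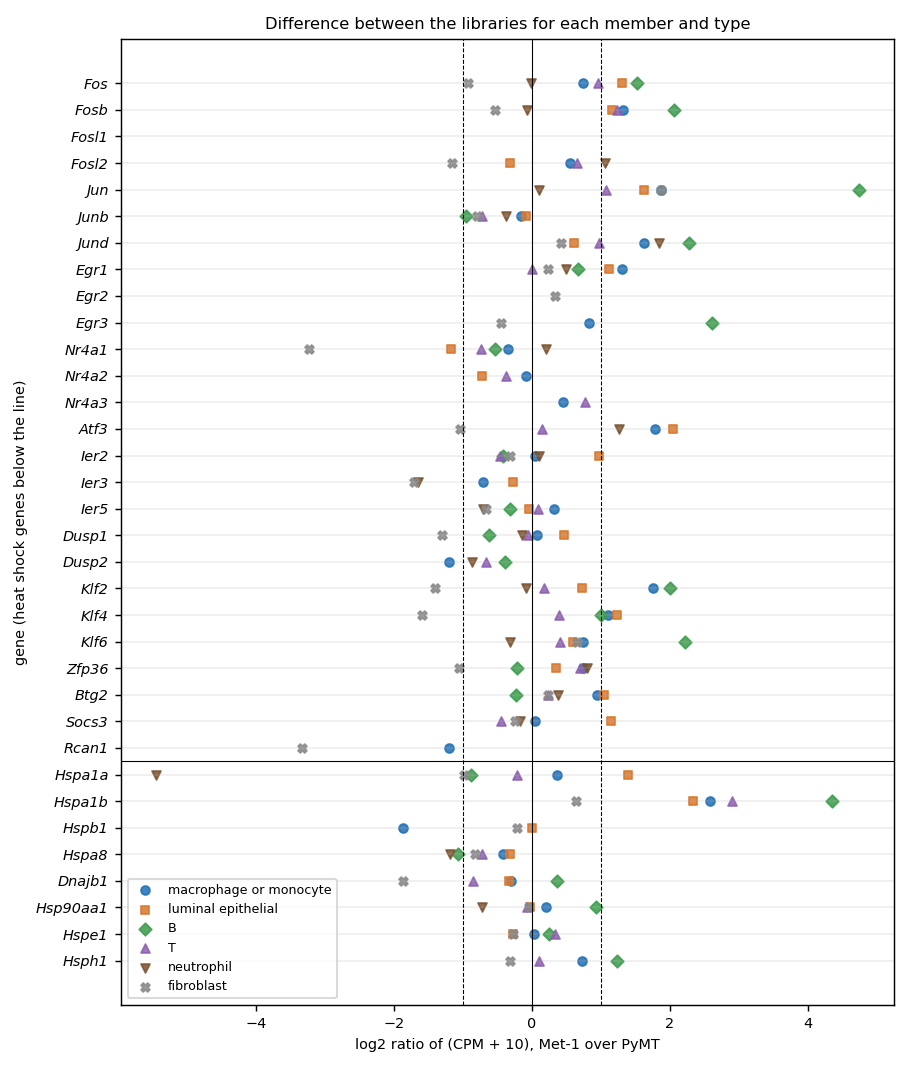
Log2 ratio of (CPM + 10), Met-1 over PyMT (x axis), for each measured member (rows) and cell type (symbols), with dashed lines at 2-fold and heat shock genes below the horizontal line. Jun, Jund and Hspa1b lie right of 0 in nearly all types, fibroblast crosses lie furthest left for Nr4a1 and Rcan1, and the leftmost Hspa1a point is neutrophils with 0 Met-1 UMIs, whose place depends on the added 10 CPM.

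The HSP70 pair showed a split that ran through the cell types. Of the UMIs of Hspa1a and Hspa1b together, Hspa1b made up 46.6% (45.3 to 47.8, exact Clopper-Pearson) in Met-1 macrophages and 14.1% (11.6 to 17.0) in PyMT macrophages. In T cells it was 61.2% against 12.7%, in B cells 62.0% against 3.17%, in fibroblasts 57.5% against 29.9%, and in luminal cells 62.4% against 45.8%. Hspa1b taken by itself was higher in Met-1 by over 2-fold in macrophages, T, B and luminal cells, with log2 ratios from 2.33 to 4.35, while in fibroblasts it was at 1.58 times (1.13 to 2.28). With both copies summed, macrophages had 813 CPM in Met-1 and 389 in PyMT, a ratio of 2.09 (1.93 to 2.27). The summed ratio was 4.02 (3.47 to 4.66) in luminal cells, 1.93 (1.48 to 2.58) in T cells, 1.37 (1.06 to 1.79) in B cells, where 38 of 63 PyMT UMIs of the pair were Hspa1a UMIs of 1 cell, and 0.822 (0.684 to 0.998) in fibroblasts. In neutrophils it went the other way, at 0.0231 (0.000581 to 0.131), with 1 UMI in Met-1 and 142 in PyMT. The copies are near-identical in their coding part: of windows of 90 bases, 49.3% of the Hspa1a transcript and 52.3% of the Hspa1b transcript occur in the other. Over the last 500 bases, 0 of 411 windows were shared. The split between the copies is uncertain where reads fall in the shared part, and the sources used here do not say how the counting treated such reads.

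Against the 5.15% of all genes higher and 1.15% lower in macrophages, 3 of 31 measured other early response genes were higher in Met-1 and 7 lower. Their median log2 ratio was -0.21, against 0.15 for all genes tested. Mcl1, a survival protein of the BCL2 family, had the highest ratio at 2.90 (2.67 to 3.17) and Rhob the next at 2.68 (2.40 to 3.01). Cyr61 had the lowest at 0.0571 (0.0332 to 0.0940), with Phlda1 at 0.277 (0.235 to 0.326). Cyr61, a matrix-associated growth regulator, was among the 10 leading genes of PyMT luminal cells. Its 83 UMIs in PyMT macrophages, 48.5 CPM, included 37 from 1 cell, and the part of RNA from other cell types was not tested. Of 23 other heat shock genes 0 were higher and 1 was lower, Hmox1, the heme-degrading enzyme, at 0.297 times (0.270 to 0.326). Hspa4 at 1.97 and Dnajc3 at 1.68 had the highest ratios and St13 at 0.719 the next lowest. Of 12 upstream factors 0 were called, with Hsf1 at 1.83 times (170 against 22 UMIs), Srf at 1.79 (1.25 to 2.64), Crem at 0.526 (0.461 to 0.601) and Hsf2 at 0.605 (0.354 to 1.07).

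Within macrophages and fibroblasts, cells high in one early gene were also high in others. Pearson's r of log2(counts per 10000 + 1) was taken over the cells of 1 type and library, which share handling and a sequencing run, for members with a UMI in at least 20% of cells. In macrophages the median r over pairs of early members was 0.38 in both libraries (210 pairs over 836 Met-1 cells and 231 pairs over 193 PyMT cells), while the median over all gene pairs was 0.03 in each. It was 0.30 in the 242 Met-1 fibroblasts, 0.13 in the 271 T cells and 0.13 in the 248 B cells of Met-1, and 0.05 in the 172 PyMT neutrophils. Neutrophils thus had the highest early sum and the lowest co-variation of the 6 groups, at a median depth of 1638 UMIs against 7672.5 and 7391 in macrophages, and the part of depth in this was not tested. Thinning macrophages to 2000 UMIs gave 0.26 in Met-1 and 0.23 in PyMT.

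The leading pairs differed between types. Fos and Dusp1 had the highest mean r between early members, 0.49 over the 6 groups (0.22 to 0.79), Fos and Zfp36 0.47 (0.13 to 0.75), Junb and Ier2 0.45 (0.19 to 0.73) and Fos and Jun 0.44 (0.06 to 0.65). In PyMT neutrophils the leading pair was Atf3 and Klf6 at 0.33, and in Met-1 B cells Jun and Hspa1b, at 0.50, came next after the HSP70 pair. In PyMT macrophages Junb reached 0.82 with both Zfp36 and Dusp1. Fosl2 and Ier3 followed Fos less closely, with an r of 0.27 and 0.19 in Met-1 macrophages. T cells of Met-1 had a pairing of their own among the highest, with Fosl2 at 0.50 to Nr4a3 and 0.43 to Nr4a2.

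Heat shock genes co-varied more with each other than with early genes in the 4 Met-1 groups, but hardly so in PyMT. Their median r was 0.27 and 0.25 in macrophages of Met-1 and PyMT, 0.32 in Met-1 B cells, 0.23 in fibroblasts, 0.18 in T cells and 0.07 in PyMT neutrophils. Hspa1a and Hspa1b gave the highest pair of all members in each of the 4 Met-1 groups, with r of 0.76 in macrophages, 0.77 in T cells, 0.72 in B cells and 0.74 in fibroblasts, and reads that both copies could give were not tested as a part of it. Between early and heat shock members the median r was lower in the 4 Met-1 groups, from 0.10 to 0.16. In PyMT macrophages it was 0.23, close to the 0.25 within heat shock members. PyMT neutrophils had 0.02 between the groups, with only 3 heat shock pairs measured. Jun gave some of the highest pairs between the groups, and its r with Hspa1a was 0.45 in Met-1 macrophages, 0.42 in T cells, 0.44 in B cells and 0.51 in PyMT macrophages. Hspe1 did not follow the early genes, with an r to Fos of -0.10 in Met-1 and -0.11 in PyMT macrophages. After thinning, Spearman's rho between a cell's early and heat shock sums was 0.25 in Met-1 and 0.31 in PyMT macrophages and -0.07 in PyMT neutrophils.

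**Figure D5:**
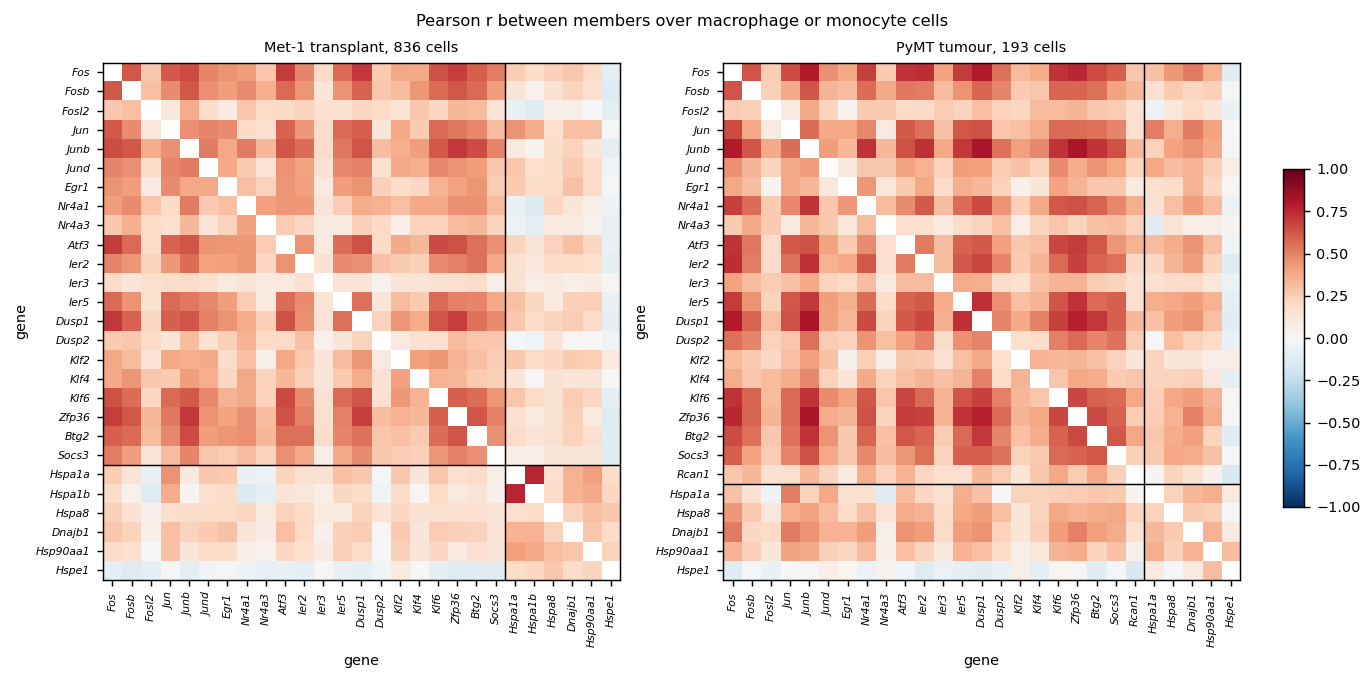
Pearson r (colour) between members over macrophage cells of Met-1 (left) and PyMT (right), early genes before and heat shock genes after the black lines. The early block is red in both (median r 0.38 each), and the Hspa1a and Hspa1b pair stands out in Met-1 at 0.76.

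Of 598 genes ranked outside the members by mean r over the 6 groups, 4 of the 10 closest to the early sum were on the wider early response list. The share of the 598 genes on that list was not computed, and the list was written with earlier results of these data known. Among the first 10 were Nfkbia at 0.43, Ppp1r15a at 0.40, Pnrc1 at 0.40, Malat1 at 0.36, Cebpb at 0.35, Ccnl1 at 0.35, Pim1 at 0.35, Ddx5 at 0.33 and Zfp36l2 at 0.33, where the median gene had -0.02. Nfkbia, the inhibitor of NF-kappaB, ranged from 0.14 in B cells to 0.78 in PyMT macrophages. Among the first 10 for the heat shock sum were Dnaja1, an HSP40 cochaperone, at 0.30, Hsp90ab1, the constitutive HSP90, at 0.28, Ubb at 0.24 and Ppp1r15a at 0.21. The ribosomal protein genes Rps19 and Rpl18 at 0.19 and Rpl14 and Rpl8 at 0.18 were also among them, where the median gene had 0.05.

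Malat1, a long noncoding RNA held in the nucleus, moved closely with the early genes in macrophages, and less or not at all in the other types. Its r with the early sum was 0.76 in Met-1 macrophages and 0.92 in PyMT macrophages, but 0.28 in T cells, 0.17 in fibroblasts, -0.01 in B cells and 0.06 in neutrophils. In the 209 Met-1 macrophages with the least Malat1 the early sum was 7448 CPM, and in the 209 with the most it was 24208. The 48 lowest and 48 highest PyMT macrophages had 2194 and 18265 CPM. Median depth differed little between the Met-1 macrophages with the least and the most Malat1, at 5133 and 4750 UMIs. In PyMT macrophages depth rose with Malat1, from 2756 to 6430.5 UMIs. The median mitochondrial share fell from 2.38% to 1.33% in Met-1 and from 2.29% to 0.923% in PyMT macrophages. With Malat1 held constant, the median partial r between early members was 0.27 in Met-1 and 0.15 in PyMT macrophages. The rank correlation of the early sum with the mitochondrial share was -0.29 and -0.38 in the macrophages of Met-1 and PyMT. Malat1 itself was also higher in Met-1 macrophages, at 25634 CPM against 16668 in PyMT macrophages. The part of nuclear RNA content or cell quality in the early levels of macrophages, or in their ratio between the libraries, was not tested.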

How the data were processed

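Whole-number UMI counts per gene and cell barcode, made with Cell Ranger 3.1.0 on mm10 per the submitters' processing notes, were used as deposited by the authors. Per the labels, sorted cells were loaded for 10x single-cell RNA sequencing. Python 3.11.15 with scanpy 1.11.5 (Scrublet), numpy 2.4.6, scipy 1.17.1 and pandas 2.3.3 was used. Cells needed at least 500 UMIs, 200 genes, at most 10% mitochondrial UMIs and no doublet call (16 Met-1 and 1 PyMT calls were left out), which kept 2119 of 2451 and 589 of 619 barcodes. A cell took the type, of 13 with fixed markers, that held at least 3 marker UMIs from at least 2 markers and at least 75% of its marker UMIs. UMIs were summed over the cells of a type and given as CPM with exact Poisson intervals, and ratios with exact conditional binomial intervals. A gene needed 50 UMIs in 1 library, and a 2-fold difference of CPM + 10 was counted as higher or lower. The counting script was tested on simulated counts. The named genes were all members, the 12 with the most UMIs (8 early and 4 heat shock), those called in macrophages, the highest and lowest ratio of each other type, the 10 genes closest to each sum (some of which are not reported here) and the 2 highest and 2 lowest ratios of each wider list. Members, markers and lists were chosen with earlier results of these data known. Promoter windows came from RefSeq, and transcripts of the HSP70 pair from GENCODE.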

Additional observations from a re-analysis of the deposited data

Results flagged for a closer look

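Several members moved in opposite directions between the tumours in different cell types, by more than 2-fold each way, and the difference between types was not tested. Values are log2 ratios of Met-1 over PyMT. Atf3 was at 1.78 in macrophages, 1.27 in neutrophils and 2.05 in luminal cells but at -1.04 in fibroblasts. Fosl2 was at 1.06 in neutrophils and -1.16 in fibroblasts. Klf2 was at 1.76 in macrophages and 2.01 in B cells and at -1.40 in fibroblasts. Klf4 was at 1.11 in macrophages and 1.24 in luminal cells and at -1.60 in fibroblasts. The negative values of these 4 genes come from the comparison with 11 PyMT fibroblasts. Without the cell with the most UMIs of the gene in each library, fibroblast Atf3 was at -0.44, Fosl2 at -1.01, Klf2 at -1.21 and Klf4 at -1.41, luminal Klf4 at 0.98 and neutrophil Fosl2 at 0.98. Hspa1a was at 1.40 in luminal cells and -5.45 in neutrophils, where Met-1 had 0 UMIs and the value depends on the added 10 CPM.

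Barcodes left out for a mitochondrial share above 10% also held member RNA. The 316 Met-1 barcodes had an early sum of 8149 CPM (7925 to 8378) and a heat shock sum of 2486 CPM (2363 to 2614), at a median of 1250.5 UMIs. The 27 PyMT barcodes had an early sum of 5059 CPM (4453 to 5725) and a heat shock sum of 2600 CPM (2171 to 3090), at a median of 1267 UMIs. All 4 sums lie below those over all kept cells, which were 12262 and 3431 CPM in Met-1 and 12188 and 4096 CPM in PyMT.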

How the results depend on the processing

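No paired analysis was possible because each tumour is 1 library with a single replicate, so leaving out a replicate was not possible either. Of the summary values recomputed under the planned settings, 215 stayed close and 31 moved by more than their spread. Under settings added after seeing the data, 31 stayed close and 19 moved. No ratio whose interval excludes 1 crossed it. The macrophage early ratio of 1.55 became 1.58 at a mitochondrial limit of 5%, 1.51 without mitochondrial and ribosomal protein genes in the total, and 1.69 with equal weight per cell. The luminal early ratio became 1.84 and 1.74 at mitochondrial limits of 5% and 20%, 1.62 without those genes, 1.63 without the top cell and 1.32 with equal weight per cell. The luminal heat shock ratio of 1.01 became 1.08 at the 20% limit, 0.969 without those genes and 0.912 with equal weight per cell. The neutrophil early ratio of 0.979, whose interval includes 1, became 1.12 at 2000 UMIs per cell and the neutrophil heat shock ratio 0.525 at 6 marker UMIs. The T cell heat shock ratio became 0.878 at a marker share of 90%.

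Counts of called members moved most when each ratio was taken relative to the other shared types, a setting chosen after seeing the data. Macrophages then had 1 early member higher and 0 lower, with 0 heat shock members either way, where 1.81% of 3484 genes were higher and 1.03% lower. The share of all genes was not computed for the other types on this scale, nor for the other settings below. The counts that follow therefore show only how the calls moved, not whether they are unusual. Neutrophils had 0 higher and 5 lower early members and 1 lower heat shock member, T cells 0 higher and 2 lower early members and 0 higher heat shock members. B cells had 3 higher early members, 1 higher and 0 lower heat shock members, and luminal cells 2 higher early members and 1 higher heat shock member. At a marker share of 90%, neutrophils had 2 lower early members and T cells 4 higher and 1 lower. T cells also had 4 higher without mitochondrial and ribosomal protein genes in the total and 4 after centring on the median gene. Requiring 50 UMIs in both libraries left 0 higher early and 0 higher heat shock members in T and B cells, and 0 lower heat shock members in neutrophils. Without the cell with the most UMIs of each member, also added after seeing the data, neutrophils had 2 lower early members and luminal cells 5 higher. Neutrophils had 1 lower heat shock member at 2000 UMIs per cell and 1 at 6 marker UMIs. B cells had 2 lower heat shock members at the 5% mitochondrial limit and 0 after centring.

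Thinning to 2000 UMIs gave a median r of 0.14 between heat shock genes in Met-1 macrophages, and of 0.23 between early and 0.13 between heat shock genes in PyMT macrophages. Holding Malat1 constant, also chosen after seeing the data, gave 0.15 and 0.12 in PyMT macrophages. Apart from the settings whose construction shows it (fewer genes or cells), the cause of these moves was not tested. PyMT B cells at 2000 UMIs, and PyMT B cells and Met-1 luminal cells at a marker share of 90%, had under 20 cells and gave no value. Low depth limits the neutrophil and B cell ratios, where many members had too few UMIs to be compared.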
